A study of Sus scrofa with 23 samples.

Results

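Vitamin D handling was described here through 7 genes of the kidney cortex of newborn pigs, chosen by their symbols from the 26687 genes in the data: CYP2R1, CYP27B1 and CYP24A1, which make and break down the active hormone, GC, which carries its precursors in blood, and VDR, RXRA and RXRB, which form its receptor. Each of the 23 libraries came from 1 pig. By the labels 11 pigs were CFTR-/- (named CF), 6 were CFTR+/- (named HET) and 6 were Wild-type (named WT), and the study compared CF with non-CF, the 12 HET and WT pigs together. All pigs were newborn, and the disrupted CFTR gene was inherited, so it was carried by every organ and not by the kidney alone. Total RNA was sequenced after depletion of ribosomal RNA.

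Vitamin D is inactive until it is hydroxylated at 2 positions. CYP2R1 adds the 25-hydroxyl group, mostly in the liver, and the vitamin D binding protein encoded by GC carries the product in blood. Proximal tubule cells of the kidney take it up through megalin and cubilin, and there CYP27B1 adds the 1-alpha-hydroxyl group that makes calcitriol. CYP24A1 starts the breakdown of calcitriol and of its precursor. Calcitriol binds VDR, which pairs with RXRA or RXRB on DNA, raises transcription of CYP24A1 and lowers that of CYP27B1, while parathyroid hormone raises CYP27B1 and FGF23 lowers it.

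The upstream sequence of CYP24A1 is shown because it carries the best known binding elements of the receptor formed by VDR and RXR, and because CYP24A1 and CYP27B1 moved in opposite directions across these libraries. The window ends 11 bases before the annotated start of the gene and begins 310 bases before it, on the minus strand at chr17:55130339-55130638 of Sscrofa11.1. It was read from the RefSeq genome. Capitals mark the 2 matches, on the strand opposite to the gene, to AGTTCANNNGGTGTG (bases 302 to 288 before the start) and AGGTGANNNAGGGCG (bases 195 to 181), the half-sites of the response elements described for this promoter, searched on both strands with any 3 bases between them. They do not overlap each other.
CYP24A1 upstream window: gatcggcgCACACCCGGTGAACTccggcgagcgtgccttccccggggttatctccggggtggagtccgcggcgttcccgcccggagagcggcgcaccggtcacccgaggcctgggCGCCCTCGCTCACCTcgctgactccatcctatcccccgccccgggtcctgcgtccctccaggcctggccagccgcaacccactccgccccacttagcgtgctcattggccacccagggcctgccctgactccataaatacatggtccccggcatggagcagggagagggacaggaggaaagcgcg
Of 19559 windows of the same length and position before protein-coding genes, 3 held AGGTGANNNAGGGCG (0.0153%) and 1 held AGTTCANNNGGTGTG (0.00511%). The only window with both was that of CYP24A1. Both motifs were those described for this promoter, so a match here was likely from the start. The shares do not measure how rare binding elements of the receptor are. These matches describe the sequence and do not show that the receptor was bound there in these kidneys.

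All 7 genes were measured in every library. Libraries held between 32901281 and 52952273 estimated counts, and the lowest count of any of the 7 was 202, for CYP24A1, far above the limit of 3 counts (0.0567 to 0.0912 CPM by library) below which a gene would be read as not detected. That limit covers counting error only. The genotype labels were checked with CFTR, whose RNA did not fall with the disrupted allele. Its range was 1.27 to 3.67 CPM under the label WT, 9.41 to 17.5 CPM under HET and 12.5 to 23.5 CPM under CF. The names CF, HET and WT therefore stand for the label of a library. Kidney cortex markers were abundant (LRP2, or megalin, at a median of 4692 CPM). The labels name no batch, but the numbers of the pigs split the libraries into 13 (pigs 1 to 6 and 12 to 18: 6 CF, 3 HET and 4 WT) and 10 (pigs 7 to 11 and 19 to 23: 5 CF, 3 HET and 2 WT), and the largest gap on the second axis of a multidimensional scaling, which holds 10.6% of the variance, fell between the same sets. Values are therefore also given within each set. Each label stands in both sets. The first axis, with 17.2% of the variance, parted 10 libraries (5 CF, 1 HET and 4 WT) from 13 (6 CF, 5 HET and 2 WT) by a gap of 0.64, against 0.32 on the second. The Y-linked gene EIF1AY was at 0.00 to 0.0961 CPM in the 10 and at 15.1 to 26.0 CPM in the 13, so the share of male pigs by this gene was uneven between HET and WT. With EIF1AY as a covariate none of the 7 genes was called in any of the 4 comparisons, against 0.215% of all genes for CF against non-CF, 0.341% for CF against WT and 0.00467% each for CF against HET and HET against WT. For CF against non-CF CYP27B1 was at 0.92 (edgeR's adjusted p = 0.191) and CYP24A1 at -0.41 (edgeR's adjusted p = 0.240) on the log2 scale.

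Per transcript length, GC was the highest of the 7 and CYP24A1 the lowest. The median TPM over the 23 libraries was 103 for GC, 28.9 for CYP27B1, 25.6 for RXRA, 13.2 for VDR, 12.5 for RXRB, 3.82 for CYP2R1 and 2.62 for CYP24A1. GC had a higher TPM than CYP27B1 in 21 of 23 libraries, RXRA than VDR in 22, RXRB than CYP2R1 in 23 and CYP2R1 than CYP24A1 in 21. CYP27B1 and RXRA were not ordered beyond their spread (CYP27B1 higher in 13 of 23), nor were VDR and RXRB (VDR higher in 11 of 23).

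Among the libraries CYP27B1 varied most. Its CPM differed 10.3-fold between the lowest and the highest library, and its SD of log2 CPM exceeded that of 98.0% of the 20921 genes tested. The corresponding range was 4.55-fold for GC, 2.98-fold for CYP24A1, 2.46-fold for VDR, 2.45-fold for RXRA, 1.85-fold for CYP2R1 and 1.80-fold for RXRB. RXRB varied less than most genes, since only 26.6% of genes had a smaller SD.

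**Figure D1:**
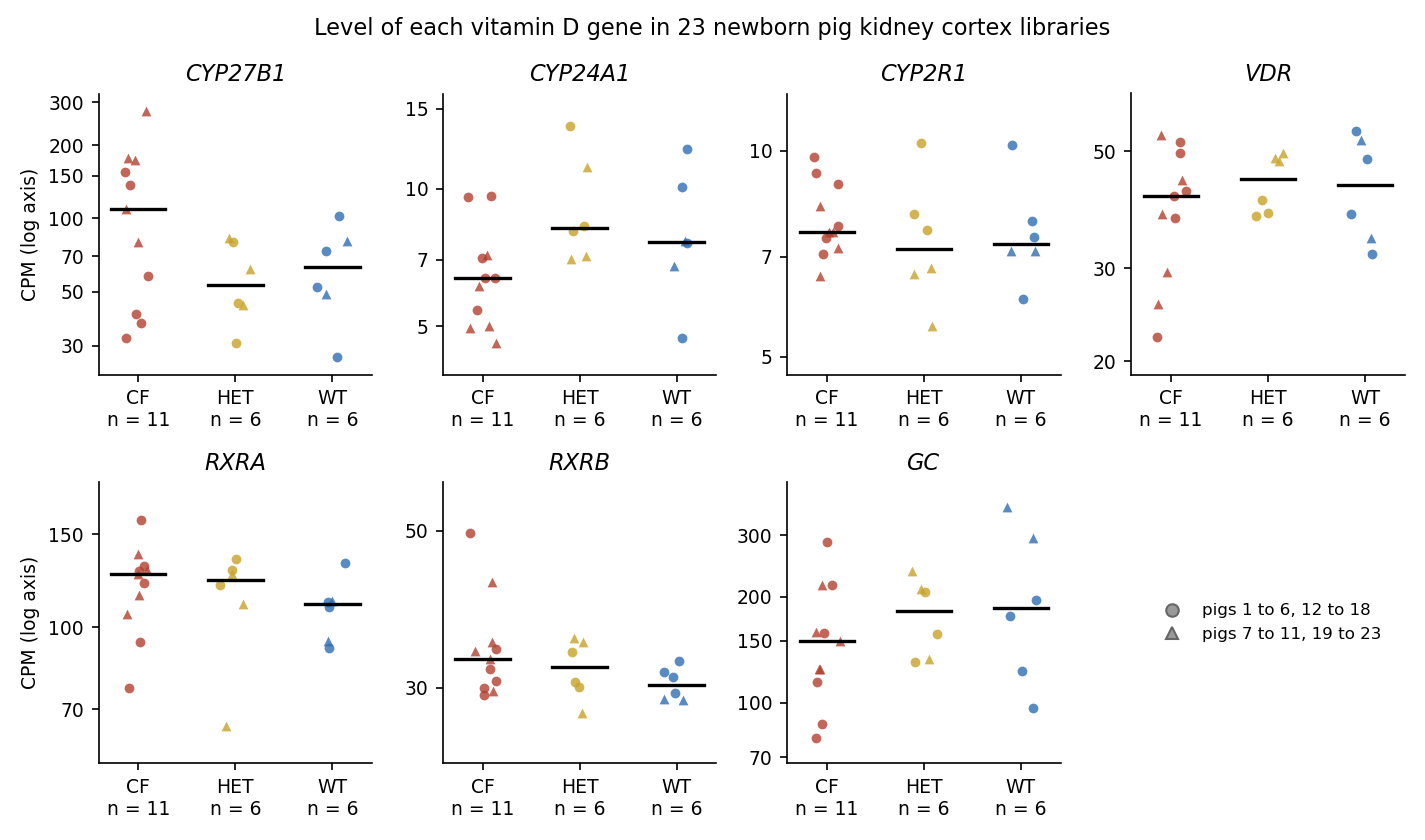
CPM (log axis) of each of the 7 genes in the libraries labelled CF (n = 11), HET (n = 6) and WT (n = 6). Points are libraries, circles are pigs 1 to 6 and 12 to 18, triangles are pigs 7 to 11 and 19 to 23, and lines are medians. CYP27B1 reached 109 CPM or more in 6 CF libraries and did not exceed 102 CPM in any of the 12 others.

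The first question was whether the activating and the degrading enzymes differed with the CFTR label. For CF against non-CF, CYP27B1 was 1.90-fold higher and CYP24A1 was 0.754-fold as high, but neither passed the test across all genes, and the other 5 genes differed by less than these 2. None of the 7 genes was called (adjusted p under 0.05 in edgeR's quasi-likelihood test), against 0.349% of the 20921 genes tested (73 genes). At an unadjusted p under 0.05 there were 2 of 7, against 13.7% of all genes. At the same adjusted threshold none of the 7 was called by DESeq2, against 2.33% of all genes (488), by limma-voom, against 0.22% (46), or by the Mann-Whitney test, which the study used, against 0.214% of the 21937 genes it was run on (47). At an unadjusted p under 0.05 the Mann-Whitney test passed 1 of the 7, CYP24A1, against 11.4% of genes (2502).

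CYP27B1 (gene 397055, chr5:23053129-23058865, minus strand) encodes the 1-alpha-hydroxylase that makes calcitriol. Its CPM in the CF libraries ran from 32.5 (CF pig 5) through a median of 109 to 276 (CF pig 7). In the HET libraries it ran from 30.8 through 53.6 to 83.2, and in the WT libraries from 26.9 (WT pig 12) through 63.1 to 102. The groups overlapped: 6 of 11 CF libraries lay above all 12 non-CF libraries, 2 more lay above the non-CF median, and 3 lay below it. The mean was 116 ± 76.2 CPM (SD, n = 11) in CF and 60.8 ± 23.3 (SD, n = 12) in non-CF. The log2 fold change was 0.93 (SE 0.309, 95% interval 0.29 to 1.57), with edgeR's unadjusted p = 0.00580 and adjusted p = 0.156. Leaving out single libraries gave 0.72 to 1.03, with adjusted p of 0.0890 to 0.301. DESeq2 gave an adjusted p of 0.0875, and the Mann-Whitney test, which uses ranks only, an exact p of 0.104 and an adjusted p of 0.520.

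The value for CYP27B1 was larger in 1 of the 2 pig number sets. In pigs 7 to 11 and 19 to 23, CYP27B1 was at 79.7, 109, 174, 176 and 276 CPM in the CF libraries and at 44.0, 49.0, 62.3, 80.6 and 83.2 CPM in the non-CF libraries. Of these CF libraries 4 lay above all 5 non-CF libraries and 1 lay among them. CF exceeded non-CF by 1.36 on the log2 scale there (SE 0.288, edgeR's adjusted p = 0.0274), and CYP27B1 was the only 1 of the 7 called, against 2.27% of 20882 genes tested in that set (473 genes). In pigs 1 to 6 and 12 to 18 the 6 CF libraries ran from 32.5 through a median of 49.3 to 155 CPM, and the 7 non-CF libraries from 26.9 through 52.6 to 102. Here the difference was 0.39 (edgeR's adjusted p = 0.824, SE 0.393). The high values were those of 2 CF libraries, pigs 1 and 2, and edgeR called no gene at all in that set (0.00% of 21038, with 1958 at an unadjusted p under 0.05). The difference between the sets, tested as an interaction term, was 0.97 on the log2 scale (SE 0.565, edgeR's unadjusted p = 0.0991, adjusted p = 0.581), so the sets were not shown to differ. With the number set as a term in the fit of all libraries the log2 fold change was 0.81 (edgeR's adjusted p = 0.177, SE 0.296).

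Both annotated transcripts of CYP27B1, of 9 and 10 exons, contributed. The 10-exon transcript held 47.9% ± 12.8 (SD, n = 11) of the TPM of the gene in CF, 42.5% ± 10.2 (SD, n = 6) in HET and 45.3% ± 10.4 (SD, n = 6) in WT. These shares overlapped throughout, and kallisto splits shared exons between the transcripts by estimate.

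Proximal tubule markers, which mark the cells that hold CYP27B1, summed over 8 of 8 listed genes to 11429 ± 1784 CPM (SD, n = 11) in CF and 10452 ± 1345 (SD, n = 12) in non-CF, with ranges of 8495 to 15160 and 7721 to 12917. None of the 8 was at 0 in any library. Loop of Henle and distal tubule markers (5 of 5 listed) summed to 1402 ± 188 CPM in CF and 1701 ± 312 in non-CF, with ranges of 1105 to 1782 and 1144 to 2217. In pigs 7 to 11 and 19 to 23, where CYP27B1 was called, the same 5 markers summed to between 1216 and 1608 CPM in CF and between 1607 and 2217 in non-CF, and other sums also moved with the label. Adipose markers (4 of 4 listed, none at 0 in any library) summed to 11.2 ± 1.28 CPM (SD, n = 5) in CF and 7.81 ± 1.77 (SD, n = 5) in non-CF, with ranges of 9.84 to 13.2 and 5.91 to 10.1, and their defining marker ADIPOQ had a median of 0.167 CPM over all libraries. Collecting duct markers (4 of 4) summed to 111 ± 14.3 CPM in CF and 148 ± 18.4 in non-CF (ranges 96.3 to 127 and 131 to 176). Immune markers (6 of 6) summed to 97.1 ± 9.54 CPM in CF and 116 ± 12.2 in non-CF (ranges 89.5 to 112 and 97.5 to 129). Liver markers (7 of 7) summed to 105 ± 21 CPM in CF and 128 ± 27.5 in non-CF (ranges 75.8 to 128 and 108 to 176). In pigs 1 to 6 and 12 to 18 the means of these 4 sums stood on the other side. There CF and non-CF were at 8.22 and 8.48 CPM for adipose, 177 and 166 for collecting duct, 130 and 104 for immune, and 152 and 87.0 for liver markers. Over all libraries the ranges of these 4 sums overlapped between CF and non-CF. The means of immune (115 against 109 CPM) and liver markers (130 against 104) were then higher in CF. Over the 23 libraries the log2 sum of the adipose markers went with log2 CPM of CYP27B1, with Pearson's r = 0.62 (permutation p = 0.00174, adjusted over 9 marker lists p = 0.0157) and Spearman's rho = 0.58 (permutation p = 0.00439, adjusted p = 0.0395). It was 0.54 without CF pig 7 and WT pig 12, 0.52 in pigs 1 to 6 and 12 to 18 and 0.76 in pigs 7 to 11 and 19 to 23. That sum rests mainly on CIDEC, a lipid droplet gene (median 6.06 CPM), and only 2 of its 4 genes passed the filter on low counts. The other 8 lists did not pass, the nearest being the proximal tubule (r = 0.46, permutation p = 0.0264, adjusted p = 0.0792) and the adrenal cortex (r = -0.47, permutation p = 0.0239, adjusted p = 0.0792). How much of the difference in CYP27B1 goes with any of these lists was not tested. In bulk tissue, fewer cells of a type and less RNA per cell cannot be told apart.

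CYP24A1 (gene 397145, chr17:55110546-55130328, minus strand, 1 transcript of 12 exons), the 24-hydroxylase, stood on the other side. Its CPM in the CF libraries ran from 4.60 (CF pig 9) through a median of 6.39 to 9.63 (CF pig 5). In the HET libraries it ran from 7.03 through 8.2 to 13.7 (HET pig 13), and in the WT libraries from 4.72 (WT pig 17) through 7.65 to 12.3 (WT pig 12). Of 11 CF libraries 9 lay below the non-CF median, 7 lay below every HET library and 1 lay below all non-CF libraries. The mean was 6.58 ± 1.73 CPM (SD, n = 11) in CF and 8.72 ± 2.59 (SD, n = 12) in non-CF. The log2 fold change was -0.41 (SE 0.157, 95% interval -0.73 to -0.08), with edgeR's unadjusted p = 0.0153 and adjusted p = 0.228. Leaving out single libraries gave -0.48 to -0.33, with adjusted p of 0.161 to 0.329. The Mann-Whitney test gave an exact p of 0.0188 and an adjusted p of 0.293.

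Within the pig number sets CYP24A1 kept its direction. In pigs 7 to 11 and 19 to 23 it was at 4.60, 4.95, 5.01, 6.13 and 7.15 CPM in CF and at 6.79, 7.03, 7.12, 7.67 and 11.2 CPM in non-CF, so that 4 of 5 CF libraries lay below all 5 non-CF libraries. On the log2 scale CF differed from non-CF by -0.51 (edgeR's adjusted p = 0.127, SE 0.166) there and -0.32 (edgeR's adjusted p = 0.714, SE 0.219) in pigs 1 to 6 and 12 to 18. At 202 counts or more per library the gene was measured well above the limit of detection, but it was the shallowest of the 7.

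**Figure D2:**
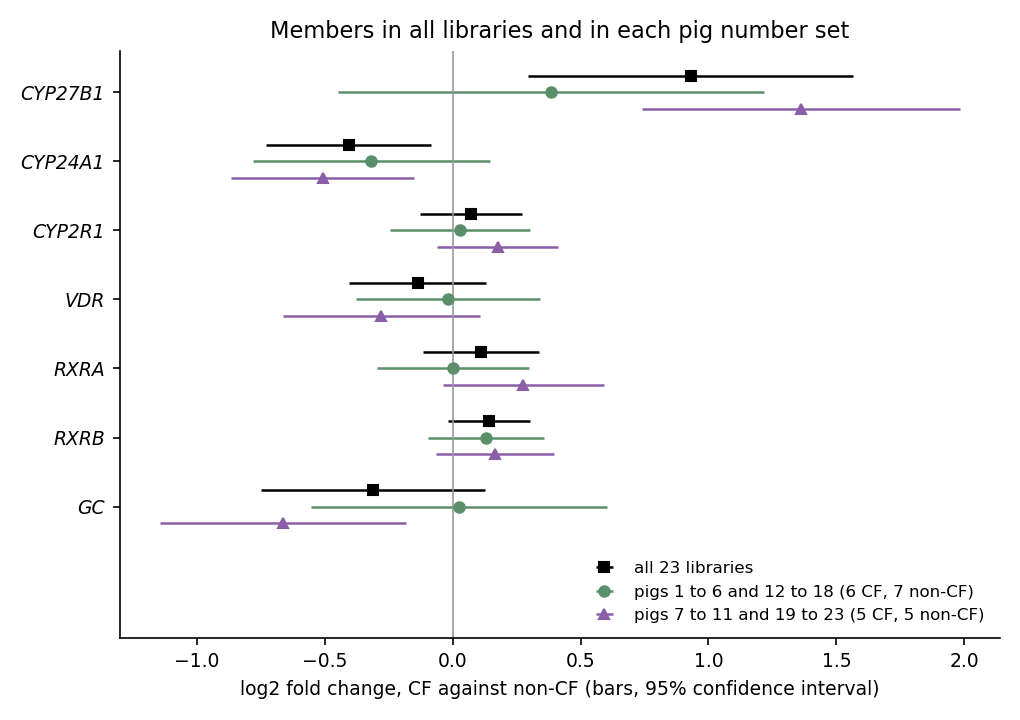
Log2 fold change of CF against non-CF for the 7 genes, with bars for the 95% confidence interval, in all 23 libraries (squares), in pigs 1 to 6 and 12 to 18 (circles) and in pigs 7 to 11 and 19 to 23 (triangles). In all libraries the intervals of CYP27B1 (0.29 to 1.57) and CYP24A1 (-0.73 to -0.08) exclude 0 before adjustment, and those of the other 5 genes include it.

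The balance of both enzymes was examined as the log2 ratio of CYP24A1 to CYP27B1 TPM in each library, with 0.1 TPM added to each. CYP27B1 exceeded CYP24A1 in every library, from 2.15-fold in WT pig 12 to 59.4-fold in CF pig 7. The median excess was 16.5-fold in CF (range 3.22 to 59.4), 7.09-fold in HET (range 2.18 to 12.5) and 8.89-fold in WT (range 2.15 to 16). The mean log2 ratio was -3.90 ± 1.40 (SD, n = 11) in CF and -2.79 ± 0.96 (SD, n = 12) in non-CF. The difference of -1.11 had a two-sided permutation p of 0.0372 over 100000 resamples, as a single comparison that was not adjusted for the other genes, and 8 of 11 CF libraries lay below the non-CF median. The ratio is built from the only 2 of the 7 genes with an unadjusted p under 0.05 in edgeR, so it is no separate evidence.

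The difference in the ratio was larger in 1 of the pig number sets, and the difference between the sets was not tested for the ratio. In pigs 7 to 11 and 19 to 23 the 5 CF ratios (-5.89 to -3.96) lay below all 5 non-CF ratios (-3.64 to -1.98), a mean difference of -1.82 with an exact permutation p of 0.00794, the smallest that 5 against 5 libraries allow. Many genes differed in that set: by edgeR, another test, 3635 of 20882 genes had an unadjusted p under 0.05. In pigs 1 to 6 and 12 to 18 the mean difference was -0.50 (exact permutation p = 0.471), and 3 of 6 CF libraries lay below the non-CF median. Against the WT libraries alone the difference was -0.95 (exact permutation p = 0.168). Leaving out any 1 of 8 libraries (CF pigs 1, 2, 7, 9 and 11, HET pigs 13 and 19 and WT pig 12) raised the permutation p above 0.05, to between 0.0565 and 0.0720 with differences of -1.06 to -0.91.

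Across all 23 libraries CYP24A1 was lower where CYP27B1 was higher. For log2 CPM, Pearson's r was -0.72 (permutation p = 1e-04, adjusted over 6 relations p = 6e-04) and Spearman's rho was -0.71 (permutation p = 2e-04, adjusted p = 0.0012). The value stayed at -0.65 without CF pig 7 and WT pig 12, the 2 libraries farthest from the median of CYP27B1. Within groups r was -0.77 in CF (n = 11), -0.62 in non-CF (n = 12), -0.63 in pigs 1 to 6 and 12 to 18 (n = 13) and -0.76 in pigs 7 to 11 and 19 to 23 (n = 10). After the mean of each label within each number set was removed it was -0.58. Both values of a point come from the same library and share its depth and scaling.

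**Figure D3:**
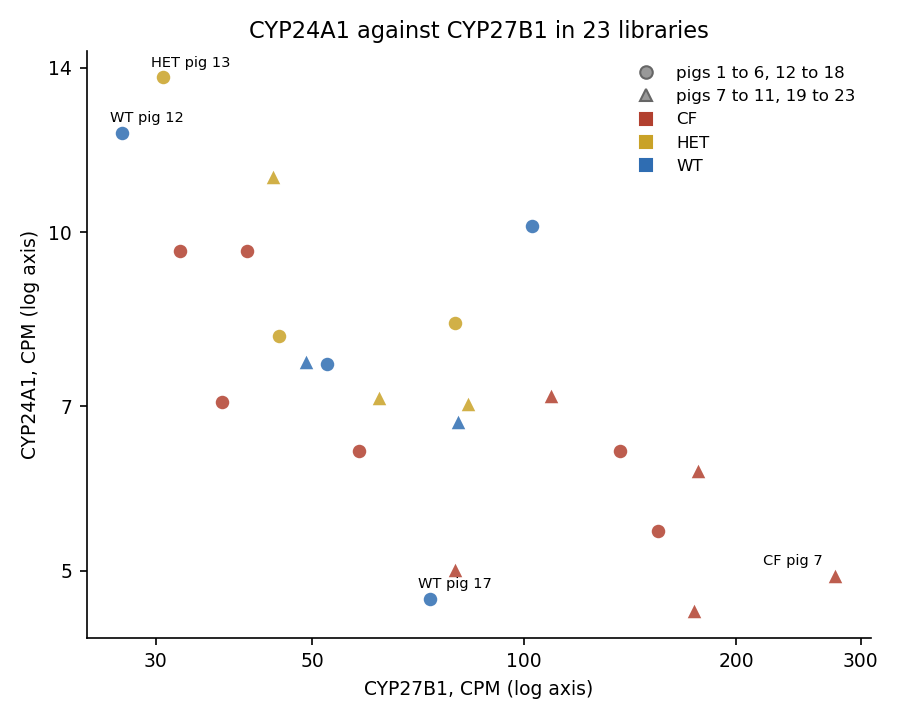
CPM of CYP24A1 against CPM of CYP27B1 in the 23 libraries, both on log axes. Colors give the label and shapes the pig number set. The libraries run from WT pig 12 and HET pig 13, with CYP27B1 at 26.9 and 30.8 CPM and CYP24A1 at 12.3 and 13.7 CPM, to CF pig 7, with CYP27B1 at 276 CPM and CYP24A1 at 4.95 CPM (Pearson's r = -0.72, permutation p = 1e-04).

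The other 5 genes were compared with CYP27B1 in the same family of 6 relations. RXRB gave r = 0.50 (permutation p = 0.0123, adjusted p = 0.0369) but rho = 0.38 (permutation p = 0.0771, adjusted p = 0.154). Its r was 0.42 without the 2 farthest libraries, 0.53 within CF, 0.06 within non-CF, and 0.39 in pigs 1 to 6 and 12 to 18 and 0.75 in pigs 7 to 11 and 19 to 23. After the mean of each label within each set was removed it was 0.49. The relation was not seen in the non-CF libraries alone, and the difference between CF and non-CF was not tested. RXRA gave r = 0.42 (permutation adjusted p = 0.0974), and CYP2R1, VDR and GC gave permutation adjusted p of 0.728 to 0.730.

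CYP2R1 (gene 100124375, chr2:44375432-44394122, plus strand, 6 exons), the main 25-hydroxylase of the liver, was low and even in the kidney. Its CPM ran from 6.57 through a median of 7.61 to 9.79 in CF, from 5.54 through 7.20 to 10.3 in HET and from 6.08 through 7.32 to 10.2 in WT, and all groups overlapped. For CF against non-CF the log2 difference was 0.07 (SE 0.0967, 95% interval -0.13 to 0.27, edgeR's adjusted p = 0.811). An antisense RNA gene overlaps CYP2R1. It held 2 to 31 counts per library, against 247 to 483 for CYP2R1. Libraries were made with a kit that keeps strand, but whether the quantification used it is not given in the sources used here, so reads of the 2 genes may not be told apart.

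GC (gene 448964, chr8:68326293-68360262, minus strand, 13 exons) encodes the carrier of vitamin D in plasma, which the proximal tubule takes back from the filtrate. It ran from 79.1 (CF pig 1) through a median of 150 to 287 CPM (CF pig 2) in CF, from 130 through 182 to 237 in HET, and from 96.8 through 187 to 360 CPM (WT pig 23) in WT. Of 11 CF libraries 8 lay below the non-CF median and 2 below all non-CF libraries, and 2 non-CF libraries, WT pigs 22 and 23, lay above all CF libraries. Its fitted log2 fold change was -0.31 (SE 0.214, 95% interval -0.75 to 0.13, edgeR's adjusted p = 0.563).

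For GC the sign differed between the pig number sets, and neither value was called. CF minus non-CF was -0.66 on the log2 scale (edgeR's adjusted p = 0.136, SE 0.223) in pigs 7 to 11 and 19 to 23, which hold both high WT libraries, and 0.02 (edgeR's adjusted p = 0.990, SE 0.272) in the other set. The interaction term was -0.69 (SE 0.398, edgeR's unadjusted p = 0.0960, adjusted p = 0.578). GC RNA is known chiefly from liver. The 7 liver markers listed summed to 59.9 to 372 CPM, and in pigs 7 to 11 and 19 to 23, where GC was at -0.66, their sum was lower in CF as well (105 ± 21 against 128 ± 27.5 CPM, SD, n = 5 each). In the other set the sum was higher in CF (152 ± 111 CPM, SD, n = 6) than in non-CF (87.0 ± 24.5, SD, n = 7). Over all libraries it was also higher in CF (130 ± 83.1 CPM, SD, n = 11, against 104 ± 32.4, SD, n = 12), where GC was lower. Of the 7 liver markers APOA1, which encodes an apolipoprotein, had a median of 69.5 CPM (43.4 to 120), FGB one of 4.85 with 320 in 1 library, and the other 5 had medians of 0.246 (ALB, or albumin, 0.0424 to 9.16) to 5.19 CPM, with FGA at 0 in 5 libraries. GC did not fall below 79.1 CPM. The part of liver RNA in the values of GC was not tested. An antisense RNA gene overlaps GC, with 25 to 197 counts per library against 3257 to 16989 for GC.

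No difference in the receptor genes passed the test. VDR (gene 396628, chr5:78205807-78266505, minus strand, 3 transcripts), the receptor of calcitriol, ran from 22.2 (CF pig 6) through a median of 41.1 to 53.7 CPM in CF, from 37.8 through 44.2 to 49.6 in HET and from 31.9 through 43.3 to 54.6 in WT. Below all non-CF libraries lay 3 CF libraries, and above all CF libraries 1 WT library. Its fitted log2 fold change was -0.14 (SE 0.130, 95% interval -0.40 to 0.13, edgeR's adjusted p = 0.704).

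RXRA and RXRB encode partners of VDR. RXRA (gene 397306, chr1:273698842-273797622, plus strand, 32 annotated transcripts) ran from 76.9 through a median of 126 to 159 CPM in CF, from 65.2 (HET pig 19) through 123 to 135 in HET and from 91.5 through 111 to 132 in WT. Its fitted difference, as log2 fold change, was 0.11 (SE 0.110, 95% interval -0.11 to 0.34, edgeR's adjusted p = 0.718). RXRB (gene 100156801, chr7:25236005-25242842, minus strand, 4 transcripts) ran from 29.3 through 32.9 to 49.7 CPM (CF pig 1) in CF, from 27.6 through 32.1 to 35.2 in HET and from 28.8 through 30.2 to 32.8 in WT. Its log2 fold change was 0.14 (SE 0.0774, 95% interval -0.02 to 0.30, edgeR's adjusted p = 0.427), and without CF pig 1 it was 0.08. The third family member, RXRG, did not reach the filter on low counts.

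Against the WT libraries alone, in the fit of all 3 labels, the log2 fold change was 0.85 (edgeR's adjusted p = 0.327, SE 0.394) for CYP27B1 and -0.32 (edgeR's adjusted p = 0.476, SE 0.189) for CYP24A1. None of the 7 genes was called, against 0.336% of 21434 genes tested, and 1 of 7 had an unadjusted p under 0.05, against 14% of all genes. Against the HET libraries the values were 1.01 (edgeR's adjusted p = 0.412, SE 0.397) and -0.49 (edgeR's adjusted p = 0.395, SE 0.188), and 2 of 7 had an unadjusted p under 0.05, against 9.83%. No gene at all was called for CF against HET (0.00%) by edgeR in this fit. With the number set as a term edgeR called 4 genes, and DESeq2 called 56 of 21434. These comparisons share the CF libraries, so their likeness is no separate evidence.

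HET and WT libraries, which carry 1 and 2 intact alleles by label, were also set against each other. CYP27B1 had a log2 fold change of -0.16 (95% interval -1.05 to 0.74, edgeR's adjusted p = 0.949) and CYP24A1 of 0.17 (95% interval -0.27 to 0.62, edgeR's adjusted p = 0.875). Across the 7 genes the log2 fold changes lay between -0.21 (GC) and 0.17 (CYP24A1). None was called, against 0.00467% of genes (CFTR alone), and none had an unadjusted p under 0.05, against 8.0%. The interval for CYP27B1 reaches 0.74 on the side where HET is higher and -1.05 on the side where HET is lower. It overlaps the interval of CF against non-CF given above, whose controls include the HET libraries. The HET interval therefore cannot tell whether HET differs from WT by as much as CF does.

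The 37 other listed genes of the pathway, of which 36 passed the filter on low counts, gave a wider view of CF against non-CF. Of these 36, 21 had a log2 fold change above 0 and 15 below, with a median of 0.03, against 49.8% above 0 and a median of 0.00 over all genes. None was called, and 12 had an unadjusted p under 0.05, 6 of them higher (against 7.35% of all genes) and 6 lower (against 6.36%). In pigs 7 to 11 and 19 to 23 alone edgeR called 5 of the 36, against 2.27% of all genes, and in the other set 0. The largest values came from known targets of the vitamin D receptor, of which 4 of 13 had a log2 fold change above 0 and 9 below (median -0.15).

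**Figure D4:**
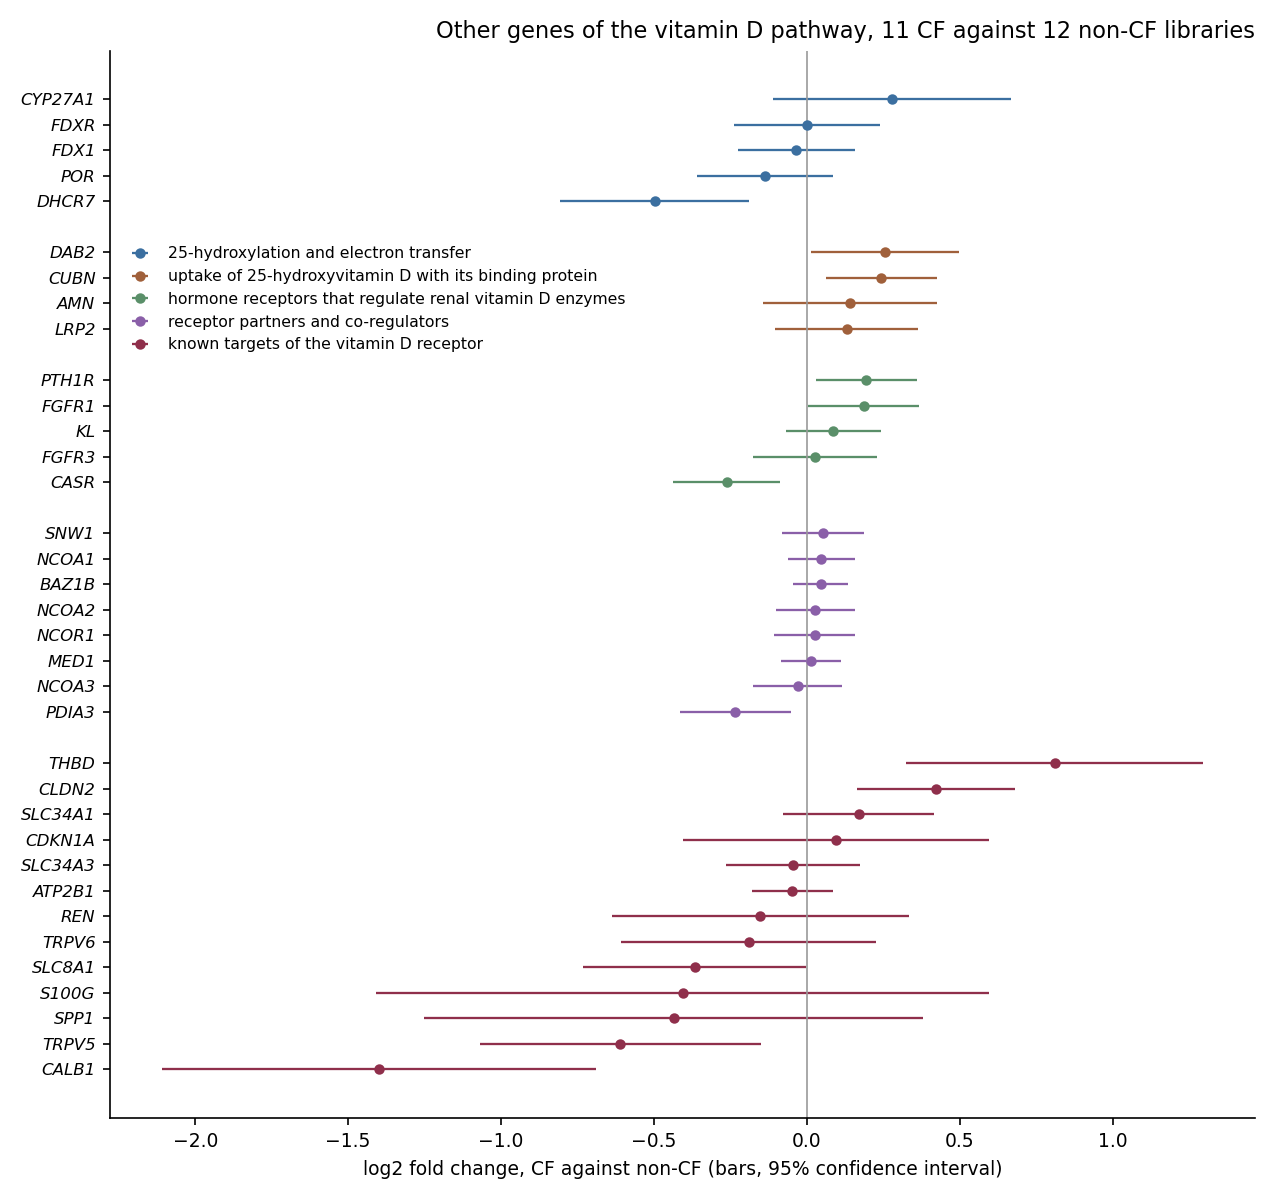
Log2 fold change of CF (n = 11) against non-CF (n = 12) for the other pathway genes tested, all but 1 of the 36 drawn, grouped by role, with bars for the 95% confidence interval. CALB1 at -1.40 and THBD at 0.81 stand farthest from 0, and all 4 uptake genes lie above 0, while none of the 36 passed an adjusted p of 0.05.

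Among the receptor's targets CALB1, the cytosolic calcium-binding protein calbindin of the distal tubule, had a log2 fold change of -1.40 (edgeR's adjusted p = 0.0636, SE 0.345). It was -2.29 in pigs 7 to 11 and 19 to 23 (edgeR's adjusted p = 0.00575) and -0.50 in the other set (adjusted p = 0.749). DESeq2 called CALB1 in all libraries, and so did edgeR without CF pig 2 or 4 or without HET pig 13 or 15. CALB1 is also 1 of the 5 distal tubule markers given above, whose sum was 1402 CPM in CF and 1701 in non-CF. Its own median was 50.4 CPM in CF and 150 in non-CF. Over all libraries SLC12A1, UMOD and SLC12A3 had higher medians (640, 402 and 298 CPM) than CALB1 (103 CPM). The part of CALB1 in the lower sum was not tested. THBD, or thrombomodulin, had 0.81 (edgeR's adjusted p = 0.104, SE 0.236) in all libraries, 1.09 (adjusted p = 0.00539) in pigs 7 to 11 and 19 to 23 and 0.70 (adjusted p = 0.514) in the other set.

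The other targets called in pigs 7 to 11 and 19 to 23 were S100G and SLC8A1. S100G, or calbindin-D9k, a small calcium-binding protein, had -0.41 (edgeR's adjusted p = 0.779, SE 0.487) in all libraries. It was at -2.44 on the log2 scale (edgeR's adjusted p = 0.00467) there and at 0.72 (adjusted p = 0.768) in pigs 1 to 6 and 12 to 18. The level of S100G was low, with a median of 0.879 CPM in CF and 3.05 in non-CF. Of 11 CF libraries 7 lay below all non-CF libraries and 2 above all of them. SLC8A1, a sodium-calcium exchanger, had -0.37 (edgeR's adjusted p = 0.362, SE 0.177) in all libraries, and -0.84 (adjusted p = 0.0201) and 0.09 (adjusted p = 0.930) in the same order of sets. The interaction terms between the sets were -3.16 for S100G, -0.93 for SLC8A1, -1.79 for CALB1 and 0.38 for THBD, with edgeR's unadjusted p of 0.000747, 0.00232, 0.00455 and 0.367. Adjusted over all genes these were 0.154, 0.204, 0.250 and 0.807, so that none passed, while 10.1% of all genes had an unadjusted interaction p under 0.05.

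CLDN2, a claudin that forms cation pores between proximal tubule cells, was the only gene of these lists that edgeR, as fitted to all libraries, called in any of the 4 comparisons. For CF against WT its log2 fold change was 0.64 (edgeR's adjusted p = 0.0471, SE 0.143), with 9 of 11 CF libraries above all 6 WT libraries. The call sat at the threshold: it was lost with no filter on low counts (adjusted p = 0.0559), with EIF1AY as a covariate (adjusted p = 0.0709) and without any 1 of 16 libraries, with adjusted p up to 0.115, while its log2 fold change stayed between 0.57 and 0.72. For CF against non-CF it was 0.42 (edgeR's adjusted p = 0.111, SE 0.126), and DESeq2 called it there (adjusted p = 0.0427).

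Genes that take up 25-hydroxyvitamin D with its binding protein had a log2 fold change above 0 in 4 of 4 cases, with a median of 0.19, and none was called. By their medians 2 of the 4 were not above non-CF, since LRP2 was at 4683 CPM in CF and 4693 in non-CF, and AMN at 87.2 and 87.5. CUBN, or cubilin, had 0.24 (edgeR's adjusted p = 0.198, SE 0.0880), and DAB2, an endocytic adaptor, had 0.26 (edgeR's adjusted p = 0.333, SE 0.117). These are proximal tubule genes, and CUBN and LRP2 are among the proximal tubule markers summed above, LRP2 as the largest part.

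Of the 5 receptor and co-receptor genes for hormones that set renal vitamin D enzymes, 4 had a log2 fold change above 0 and 1 below. The calcium-sensing receptor CASR had a log2 fold change of -0.26 (edgeR's adjusted p = 0.142, SE 0.0846). The parathyroid hormone receptor PTH1R had 0.19 (edgeR's adjusted p = 0.263, SE 0.0803). It was called in pigs 7 to 11 and 19 to 23, at 0.36 (edgeR's adjusted p = 0.0455), and was at 0.05 (adjusted p = 0.933) in the other set, with an interaction term of 0.31 (edgeR's adjusted p = 0.450). KL, the co-receptor of FGF23, had 0.09 (edgeR's adjusted p = 0.677).

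For 25-hydroxylation, precursor supply and electron transfer, 2 of 5 genes had a log2 fold change above 0 and 3 below. DHCR7, which draws the vitamin D precursor 7-dehydrocholesterol into cholesterol, had a log2 fold change of -0.50 (edgeR's adjusted p = 0.117, SE 0.150), and CYP27A1, another 25-hydroxylase, had 0.28 (edgeR's adjusted p = 0.556, SE 0.189). Among 9 tested receptor partners and co-regulators 7 had values above 0 and 2 below, and PDIA3 had the smallest p, with -0.23 on the log2 scale (edgeR's adjusted p = 0.217, SE 0.0878).

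Genes whose levels followed each of the 7 most closely were taken as those with the highest Pearson's r of log2 CPM over the 23 libraries, among 16310 genes with a mean log2 CPM of at least 1. For CYP27B1 these were FADS6 (r = 0.82), LPCAT3 (0.82), which remodels phospholipids, and SNX9 (0.82), a sorting nexin. For CYP24A1 they were BCL2L14 (0.72), ARHGAP6 (0.71) and C4H8orf89 (0.71).

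VDR was followed most closely by ATP1B1 (0.81), which encodes a subunit of the sodium pump, and the uncharacterized LOC102161013 (0.80). GC went with TMEM174 (0.85), TINAG (0.80), a tubular basement membrane gene, and RSRC1 (0.79). RXRA went with NDST1 (0.94), ZFPM1 (0.91) and CEP170B (0.90), RXRB with LIMK2 (0.89) and ZFP36L2 (0.88), and CYP2R1 with SYNE2 (0.74), FBN1 (0.72) and PI16 (0.71). All values of a library share its depth and scaling, and these are descriptions of likeness, picked as the highest of many.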

How the data were processed

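The authors quantified reads against pig transcripts (Sscrofa11.1) with kallisto, per the labels, and the deposited files hold 77689 transcripts with their estimated counts and, in TPM, the same estimates scaled by transcript length and library total. The estimated counts were summed per gene symbol to 26687 genes and rounded. Labels give no litter, sex or batch, and each library is labelled as a separate pig.

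Counts were tested with edgeR 4.0.16 (R 4.3.3): TMM, filterByExpr, quasi-likelihood test and Benjamini-Hochberg adjustment over all genes tested, with 11 CF against 12 non-CF libraries, and the 3 labels in a second fit of all 23. CPM uses TMM-scaled library sizes, and log2 CPM a prior count of 2. The ratio and relations used permutation tests in scipy 1.17.1 on deposited TPM (pseudocount 0.1) and on log2 CPM. Alternatives were DESeq2 1.42.0, limma-voom 3.58.1, the Mann-Whitney test that the study used (here with a filter of 5 counts or more in 47% of libraries, not stated by the study, and Benjamini-Hochberg adjustment), other normalizations, no filter, WT or HET alone, number sets, a Y-linked gene (EIF1AY) as a covariate, and each library left out. Settings for CLDN2 and CALB1, the Y-linked covariate with 3 labels and the marker relations were added after seeing the data. Scripts were tested on simulated data. The tools pysam 0.24.0 (sequence) and matplotlib 3.10.9 (figures) were used.

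The members, lists and tests were chosen with earlier results of these data known. Named genes are the 7, CFTR, in each pathway list the 2 with the smallest p for CF against non-CF and any with an adjusted p under 0.05, and 3 most alike per member, and a few that this rule names are not reported here. KL, RXRG, AMN, S100G, SLC8A1, the single liver markers, ADIPOQ, CIDEC, EIF1AY and LRP2 were named outside this rule after their values were seen. Reads, the study's protein and metabolite data were not analysed here.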

Additional observations from a re-analysis of the deposited data

Results flagged for a closer look

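RXRA in the library labelled HET pig 19, at 65.2 CPM, lay far from the other HET libraries, which ran from 111 to 135 CPM. The gap to the nearest of them was 0.656 of the range of the group, above the critical value of 0.625 for 6 libraries. In all, 16 sets of 6 libraries were examined (the 7 genes and the ratio, in HET and in WT) and 1 was flagged, where chance flags about 1 in 20. Without that library the log2 fold change of RXRA for CF against HET turned from 0.08 to -0.05, and neither was called.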

How the results depend on the processing

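No paired analysis was possible because the labels give no litter. The study paired CF and WT littermates in its metabolite experiments. Whether pigs here share a litter is not known, and every test treated them as independent. The number of the 7 genes called was 0 in every comparison, and also under each alternative but 1: with pigs 7 to 11 and 19 to 23 alone, 1 gene (CYP27B1, log2 fold change 1.36) was called for CF against non-CF. Leaving out each library gave 0 to 0 called. Of 833 recomputed log2 fold changes of the 7 genes, 817 kept their direction and side of the threshold, 15 reversed and 1 gained a call. The difference in the ratio of CYP24A1 to CYP27B1 was -0.95 with WT alone as control and -0.50 in pigs 1 to 6 and 12 to 18, with permutation p of 0.168 and 0.471, and -1.34 to -0.91 with each library left out. With pseudocounts of 0.01 and 1 it was -1.13 and -0.99. Reversed values all lay near 0, and none belonged to a result with an unadjusted p under 0.05. GC was at 0.0246 in pigs 1 to 6 and 12 to 18, and VDR at -0.0930 in HET against WT with the Y-linked gene as a covariate. With single libraries left out, RXRA ranged from -0.0533 to 0.128 in CF against HET, and in HET against WT the ranges were -0.313 to 0.0314 for CYP27B1, -0.145 to 0.0737 for CYP2R1, -0.0539 to 0.0975 for VDR and -0.354 to 0.0177 for GC. The cause was not tested. Each of the 7 genes had 202 counts or more per library. How much of the spread is counting error was not tested, and other genes named were measured at lower depth.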
